A study of Mus musculus with 6 samples.

Results

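The Kv1 family of voltage-gated potassium channels was examined through 9 genes, taken by symbol: the 6 alpha subunit genes Kcna1, Kcna2, Kcna3, Kcna4, Kcna5 and Kcna6, and the 3 beta subunit genes Kcnab1, Kcnab2 and Kcnab3. All 9 were among the 32531 gene symbols counted. Translating ribosome affinity purification with RNA sequencing (TRAP-seq) had been applied to the cerebral cortex of adult, untreated mice that carry Htr4-EGFP/Rpl10a (line ES1299). In such a line the ribosomal protein Rpl10a carries EGFP in cells that use the regulatory sequence of Htr4, a serotonin receptor gene, and antibodies against EGFP pull down their ribosomes. The 2 groups were IP, the RNA bound to captured ribosomes (n = 3 libraries), and input, the cortical RNA labelled as input (n = 3 libraries). Both groups carry the transgene, and the labels do not state that replicates came from separate animals, so p-values measure only the spread between these libraries, which may be technical. The stated subject of the study is the pyramidal neuron of the cortex.

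Kv1 channels open when the membrane depolarises and let potassium out, which shortens the action potential and damps repetitive firing. Each channel is a tetramer of alpha subunits, which form the pore and sense voltage. Cytoplasmic beta subunits dock on the alpha tetramer, help it reach the surface of the axon, and in some forms carry an N-terminal segment that plugs the open pore (N-type inactivation). In cortical and hippocampal neurons the channels are best known from the axon initial segment, the stretch next to the node of Ranvier, and axon terminals.

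The coding stretch around the potassium selectivity filter is shown for the 6 alpha genes, because the protein is nearly the same there and read counts can be told apart only if the bases differ. Capitals mark the 18 bases coding for the filter residues threonine, valine, glycine, tyrosine, glycine and aspartate, with 21 coding bases on either side, from GENCODE M21 transcripts on build GRCm38.
Kcna1, chr6:126642204-126642263, minus strand: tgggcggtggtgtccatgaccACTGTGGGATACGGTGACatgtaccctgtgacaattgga
Kcna2, chr3:107105203-107105262, plus strand: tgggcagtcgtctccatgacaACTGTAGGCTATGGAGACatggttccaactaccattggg
Kcna3, chr3:107037590-107037649, plus strand: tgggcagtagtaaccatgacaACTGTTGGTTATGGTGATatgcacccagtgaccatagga
Kcna4, chr2:107296474-107296533, plus strand: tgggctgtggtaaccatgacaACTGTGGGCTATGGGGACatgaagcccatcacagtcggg
Kcna5, chr6:126533721-126533780, minus strand: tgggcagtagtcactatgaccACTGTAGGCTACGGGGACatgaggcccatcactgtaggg
Kcna6, chr6:126738623-126738682, minus strand: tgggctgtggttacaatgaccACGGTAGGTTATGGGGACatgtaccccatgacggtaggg

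Even here, where the encoded filter is identical, the other 5 genes differed from Kcna1 at 13 to 18 of the 60 bases. Over whole coding sequences, pairs of alpha genes were 70.1% (Kcna4 and Kcna5) to 77.3% (Kcna1 and Kcna3) identical. Of the 50-base words in its transcripts, Kcna5 shared 2.81% with transcripts of other genes (Kcna6 and its antisense gene Gm26673), and Kcna1, Kcna2, Kcna3 and Kcna4 shared at most 0.515%. Kcna6 shared 38.8%, nearly all with Gm26673, which overlaps 2355 of its 5945 exon bases on the opposite strand. Gm26673 is not a row of the files, and the strand setting of the counting is not given in the sources used here, so antisense reads could be counted as Kcna6.

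The start of the coding sequence is shown for the 3 beta genes, because all 3 were higher in IP and this end encodes the N-terminal segment, which in some forms plugs the pore. Capitals mark the start codon.
Kcnab1, chr3:65109772-65109831, plus strand: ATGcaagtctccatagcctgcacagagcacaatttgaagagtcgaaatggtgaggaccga
Kcnab2, chr4:152435822-152435881, minus strand: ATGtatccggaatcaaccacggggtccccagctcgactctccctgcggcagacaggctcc
Kcnab3, chr11:69326682-69326741, plus strand: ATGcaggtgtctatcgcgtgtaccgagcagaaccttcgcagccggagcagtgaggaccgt

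Read base by base from the start codon, Kcnab3 matched Kcnab1 at 40 of 60 bases and Kcnab2 matched it at 12. Across whole coding sequences the closest pair was Kcnab1 and Kcnab2, with 76.7% identity over 1100 aligned bases. Counts were made per gene, so splice forms with other first exons were not separated.

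Libraries held 53147173 to 67559533 reads on genes in IP and 37696125 to 52360452 in input. Values are reads of a gene relative to all reads on genes (CPM), with library sizes scaled by TMM, a method that aligns the bulk of genes between libraries, and errors are SD over 3 libraries. A floor of 3 reads corresponded to 0.0444 to 0.0564 CPM in IP and 0.0573 to 0.0796 CPM in input (from library sizes before TMM scaling, counting error only). Htr4 had 19.9 ± 2.36 CPM in IP and 7.88 ± 0.265 CPM in input. Of the marker genes listed, all 5 astrocyte, 5 oligodendrocyte, 4 oligodendrocyte precursor and 5 microglial genes were lower in IP. Their summed levels were 12.1 to 16.6, 127 to 150.0, 4.43 to 8.01 and 1.51 to 2.96 CPM in IP, in that order, and 259 to 263, 1058 to 1210, 81.2 to 85.1 and 37.9 to 43.6 CPM in input. Of 5 endothelial genes 3 were lower, with Tek at 0 reads in IP, and of 5 mural cell genes 3 were lower. Of 5 pan-neuronal genes 4 were higher in IP, with sums of 26590 to 28482 CPM in IP and 18391 to 21670 CPM in input. Most of these sums was Snap25, with 24267 CPM in IP and 17374 CPM in input, and Syt1 was not called (log2 fold change 0.10, adjusted p = 0.43, edgeR). Of 5 excitatory cortical genes 2 were higher. Of 6 striatal projection neuron genes 5 were higher and 1 was lower, with sums of 707 to 986 CPM in IP and 245 to 305 CPM in input. Of 6 genes of parvalbumin interneurons 1 was higher and 2 were lower.

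All 3 beta subunit genes and the alpha subunit gene Kcna5 were higher in IP, and the other 5 alpha genes did not pass the test. In bulk samples, a difference in the number of cells that express a gene cannot be told apart from a difference in RNA per cell. All 9 genes passed the filter on low counts. Of the 9, 4 rose, against 21.3% of the 16506 genes tested, and none fell, against 23.4% (two-sided quasi-likelihood test in edgeR, with p adjusted by Benjamini-Hochberg and called under 0.05). Calls in either direction made up 44.8% of tested genes. With an offset for gene length and GC content that raised the median gene by 0.29 on the log2 scale, 7 of the 9 rose, where 5955 of 14469 genes were called higher. Without that offset, at an unadjusted p under 0.05, 5 genes were higher and 0 lower, for which no share over all genes was computed. DESeq2 called 4 higher and 0 lower, where it called 3606 higher and 4697 lower among 22418 genes. Every IP library lay above every input library for 5 of the 9 genes (26.5% of tested genes) and below for 0 (29.5%), and the groups stood apart in either direction for 56.1% of tested genes. The median log2 fold change, IP over input, was 0.26 over the 9 genes and -0.02 over all tested genes.

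**Figure D1:**
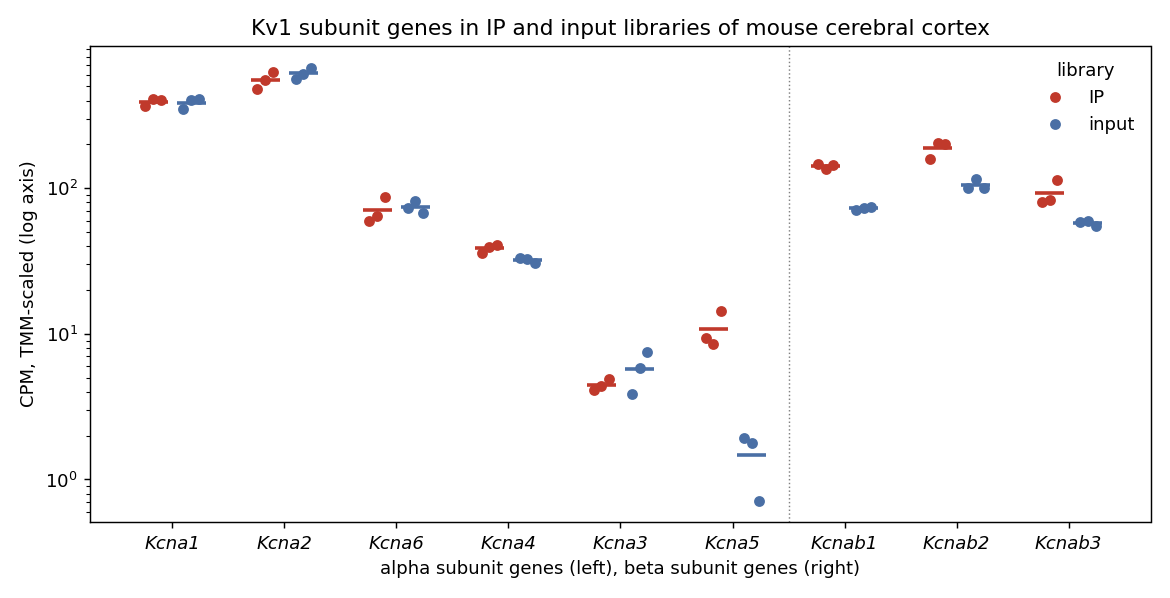
Expression of the 9 Kv1 genes in each library. The vertical log axis gives TMM-scaled CPM, points are libraries (IP red, input blue), and short bars are means of 3. The 3 IP points stand above the 3 input points for Kcnab1, Kcnab2, Kcnab3, Kcna5 and Kcna4, and the points of the other 4 genes overlap.

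Kcnab1 encodes a beta subunit whose N-terminus confers fast inactivation on channels that otherwise lack it. It had 146.1, 135.0 and 144.3 CPM in IP replicates 1 to 3, against 70.9, 73.4 and 74.8 CPM in input replicates 1 to 3. The groups stood far apart and each was tight. The fold change was 1.94 (95% interval 1.70 to 2.22, adjusted p = 7.5e-06, edgeR), and the log2 fold change within lanes 1, 2 and 3 was 1.04, 0.88 and 0.95. Of all tested genes, 6.89% had a larger log2 fold change. Kcnab1 lies on chromosome 3 at 65109384 to 65378223 (plus strand, GRCm38), and 201 of its 8593 exon bases overlap the antisense gene A330015K06Rik, which had 1, 3 and 43 reads in IP and 20, 51 and 65 in input.

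Kcnab2 encodes the beta subunit best known for carrying Kv1.2-containing channels to the axon, without an inactivating N-terminus. It had 158.7, 205.3 and 200.1 CPM in IP, against 101.1, 115.1 and 100.9 CPM in input. The lowest IP library, replicate 1, was still above every input library. The fold change was 1.78 (log2 fold change 0.83, SE 0.11, adjusted p = 0.00012, edgeR), with log2 fold changes of 0.65, 0.84 and 0.99 within lanes. Kcnab2 lies on chromosome 4 at 152390742 to 152477871 on the minus strand. It shares 125 of its 5578 exon bases with the same-strand gene Gm16334, which is not a row of the files.

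Kcnab3 encodes a beta subunit found mainly in brain. It had 80.8, 82.9 and 114.3 CPM in IP, against 58.3, 59.8 and 55.3 CPM in input. IP replicate 3 was well above the other IP libraries, and input libraries were close together. The fold change was 1.60 (95% interval 1.31 to 1.96, adjusted p = 0.0015, edgeR). Within lanes 1, 2 and 3 the log2 fold change was 0.47, 0.47 and 1.05, and without IP replicate 3 it was 0.51 (adjusted p = 0.0026). Kcnab3 lies on chromosome 11 at 69326258 to 69333042 (plus strand), with 147 of 2865 exon bases under the antisense gene Kcnab3os, which is not a row of the files.

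The beta genes kept similar proportions to each other while their sum was higher. Summed beta CPM was 386, 423 and 459 in IP and 230.3, 248 and 231 in input. Of beta reads, Kcnab2 held 44.4% ± 3.75 in IP and 44.6% ± 1.48 in input, Kcnab1 33.7% ± 3.60 in IP and 30.9% ± 1.42 in input, and Kcnab3 21.8% ± 2.77 in IP and 24.4% ± 0.748 in input. These shares do not depend on library scaling, and the ranges of the groups overlapped for Kcnab1, Kcnab2 and Kcnab3. The neuronal, striatal and glial marker sums given above moved in the same libraries, and their part in the rise of the beta genes was not tested.

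Kcna5 encodes an alpha subunit of delayed rectifier channels that is best known from heart atrium and vascular smooth muscle. It had 9.38, 8.501 and 14.5 CPM in IP (523, 593 and 988 reads), against 1.93, 1.77 and 0.716 CPM in input (71, 89 and 35 reads). Every IP library was far above every input library. The fold change was 7.36 (95% interval 4.20 to 12.9, adjusted p = 8.5e-05, edgeR), and the log2 fold change of 2.88 ranked 33 of 16506. Lane 3 held both the highest IP and the lowest input library, and the log2 fold change was 4.34 there, against 2.28 and 2.26 in lanes 1 and 2. With any 1 library left out it ran from 2.55 to 3.13 and stayed called, with adjusted p from 6.9e-05 to 0.00088. Of the striatal projection neuron markers, Penk (5.46-fold), Adora2a (5.36-fold) and Drd2 (4.13-fold) were among the 5 of 6 that were higher in IP, and Rgs9 was lower (0.371-fold). The 5 mural cell markers, for vascular smooth muscle and pericytes, summed to 11.3 to 16.8 CPM in IP and 20.1 to 30.8 CPM in input. Most of that sum was Rgs5, with 12.9 CPM in IP and 18.9 CPM in input and overlapping groups, and it was called lower (log2 fold change -0.56, adjusted p = 0.046, edgeR). Myh11 (-1.65, adjusted p = 0.033, edgeR) and Pdgfrb (-2.49, adjusted p = 0.00056, edgeR) were also called lower. The smooth muscle marker Acta2 was not called (-2.50, adjusted p = 0.053, edgeR), and Kcnj8, with 1 read in IP and 95 in input, was not tested. The part of either cell type in the Kcna5 level was not tested.

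Kcna5 lies on chromosome 6 at 126532551 to 126535412 in a cluster with Kcna1 and Kcna6, all on the minus strand, separated by 105.0 and 61.9 kb. Its nearest Kv1 neighbour, Kcna1, was not called between IP and input. There were 0.0255, 0.0207 and 0.0360 Kcna5 reads per Kcna1 read in IP replicates 1 to 3, against 0.00551, 0.00440 and 0.00175 in input replicates 1 to 3. This ratio is free of library scaling, and the groups did not overlap. Over the 6 libraries, the tested genes with the log2 CPM pattern most like that of Kcna5 were Uqcr11 (Pearson r = 0.9991), Rassf1 (r = 0.9984) and Aldoa (r = 0.9983). These r describe 6 libraries that fall into 2 groups, and the log2 fold changes of those genes were smaller, at 1.07, 0.74 and 0.57.

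Kcna1 encodes Kv1.1, the low-threshold alpha subunit whose human mutations cause episodic ataxia. It had 367, 411 and 402.0 CPM in IP, against 351, 402.0 and 408 CPM in input. The groups overlapped fully. The log2 fold change was 0.02 (95% interval -0.17 to 0.22, adjusted p = 0.86, edgeR). With the uncentred length and GC offset, which shifted the median gene by 0.29, it was 0.35 and passed (adjusted p = 0.0044), and with the centred one it was 0.01 and did not.

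Kcna2 encodes Kv1.2, the usual partner of Kv1.1 in axonal heteromers. It had 484, 552 and 624 CPM in IP, against 567, 606 and 674 CPM in input. IP was the lower of the pair in each lane, but the groups overlapped, and the log2 fold change of -0.15 did not pass (95% interval -0.38 to 0.08, adjusted p = 0.26, edgeR). With the length and GC offset the sign turned and the gene passed (log2 fold change 0.36, adjusted p = 0.0098, where the median gene shifted by 0.29), and with that offset centred on the median gene it was 0.03.

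Kcna4 encodes Kv1.4, the alpha subunit that inactivates by its own N-terminus and is found in axons and terminals. It had 36.2, 39.2 and 40.8 CPM in IP, against 33.4, 32.9 and 30.5 CPM in input. All IP libraries were above all inputs, by a small margin. The log2 fold change was 0.26 (95% interval 0.01 to 0.51), and the adjusted p of 0.081 (edgeR) missed the threshold. It passed with total counts (log2 fold change 0.35, adjusted p = 0.029) and with the uncentred length and GC offset (0.62, adjusted p = 0.00074), and not with the centred one (0.29, adjusted p = 0.062).

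Kcna6 encodes Kv1.6, an alpha subunit found in both principal cells and interneurons. It had 59.4, 65.0 and 87.5 CPM in IP, against 72.7, 82.3 and 67.6 CPM in input. The highest and the lowest library were both IP. The log2 fold change was -0.07 (95% interval -0.38 to 0.24, adjusted p = 0.72, edgeR), with a sign that differed between lanes (-0.29, -0.34 and 0.37).

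Kcna3 encodes Kv1.3, known from lymphocytes and microglia as well as neurons. It had 4.14, 4.39 and 4.94 CPM in IP, against 3.87, 5.84 and 7.53 CPM in input. Input spread widely around the narrow IP range. The log2 fold change was -0.36 (95% interval -0.97 to 0.25, adjusted p = 0.33, edgeR). With the length and GC offset centred on the median gene it was -0.83 and passed (adjusted p = 0.038). The microglial marker sum was lower in IP, as given above, and its part in the Kcna3 level was not tested.

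**Figure D2:**
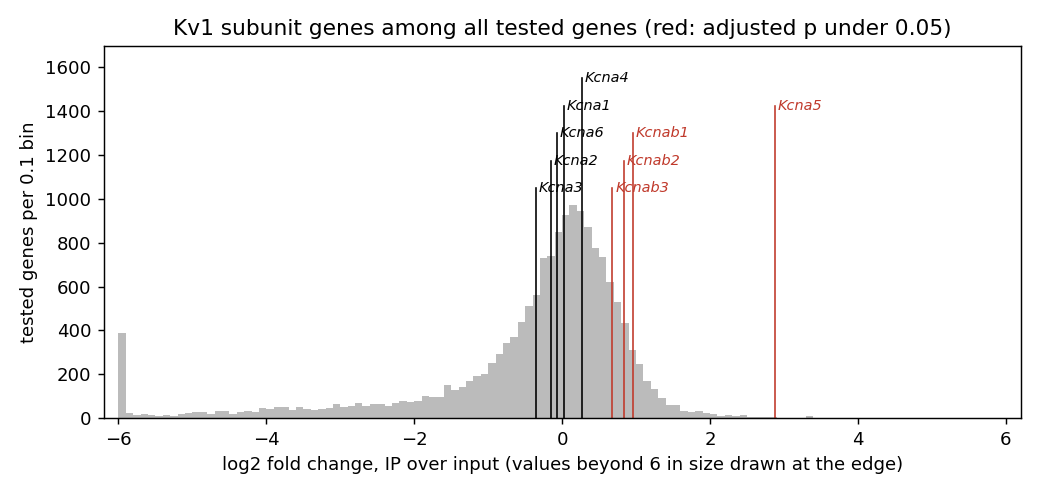
Place of the 9 Kv1 genes among all tested genes. The horizontal axis is the log2 fold change, IP over input, the grey histogram counts tested genes per bin, and vertical lines mark the 9 genes, red where the adjusted p is under 0.05. Kcna5 stands in the far right tail at 2.88, Kcnab1, Kcnab2 and Kcnab3 on the right shoulder between 0.68 and 0.96, and the other 5 near the centre.

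Between genes, levels can be set side by side only per length, here as CPM per kilobase of exon model (GENCODE M21). The annotation used for counting is not given in the sources used here. The bases counted may therefore differ from these models, and the order of genes below holds only for these lengths. Kcna1 stood first with 82.3 ± 4.82 in IP and 81.0 ± 6.62 in input, and Kcna2 second with 46.5 ± 5.89 in IP and 51.7 ± 4.58 in input. In IP there followed Kcnab2 with 33.7 ± 4.58, Kcnab3 with 32.3 ± 6.56, Kcnab1 with 16.5 ± 0.692, Kcna6 with 11.9 ± 2.50, Kcna4 with 8.02 ± 0.483, Kcna5 with 3.77 ± 1.13 and Kcna3 with 2.36 ± 0.214. In input the values were 18.9 ± 1.46 for Kcnab2, 20.2 ± 0.804 for Kcnab3, 8.50 ± 0.229 for Kcnab1, 12.5 ± 1.25 for Kcna6, 6.68 ± 0.323 for Kcna4, 0.515 ± 0.231 for Kcna5 and 3.02 ± 0.964 for Kcna3. The ranges of Kcnab2 and Kcnab3 overlapped in either group, with the Kcnab2 mean ahead in IP and the Kcnab3 mean ahead in input. Within each input library Kcnab3 was above Kcnab2 (20.3 against 18.1, 20.9 against 20.6 and 19.3 against 18.1), and in IP the order differed between replicates. The order of means also changed elsewhere: Kcnab1 was above Kcna6 in IP and below it in input, and Kcna5 was above Kcna3 in IP and below it in input. The exon model of Kcna2 is 11906 bases long, against 4780 for Kcna1, so their order per read, with Kcna2 ahead, is the reverse of that per kilobase.

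Beta reads were more numerous relative to alpha reads in IP, while the alpha sums of the groups overlapped. Summed alpha CPM was 960.3, 1080.4 and 1174 in IP and 1029, 1130.5 and 1189 in input. There were 0.401, 0.392 and 0.391 beta reads per alpha read in IP replicates 1 to 3, against 0.224, 0.220 and 0.194 in input. This ratio, also free of library scaling, was 1.86 times higher in IP, and per kilobase it was 0.533 ± 0.0180 in IP and 0.308 ± 0.0237 in input. Within the alpha set, Kcna5 rose to 0.999% ± 0.224 of alpha reads in IP, against 0.135% ± 0.0665 in input, and Kcna1 and Kcna2 together made up most of the set in every library. Kcna2 held 51.6% ± 1.44 of alpha reads in IP and 55.1% ± 1.57 in input, with every IP share (50.4%, 51.1% and 53.2%) below every input share (55.1%, 53.6% and 56.7%). Kcna1 held 36.8% ± 2.25 in IP and 34.7% ± 0.797 in input, with overlap. Kcna4 held 3.63% ± 0.147 in IP and 2.91% ± 0.341 in input, without overlap.

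**Figure D3:**
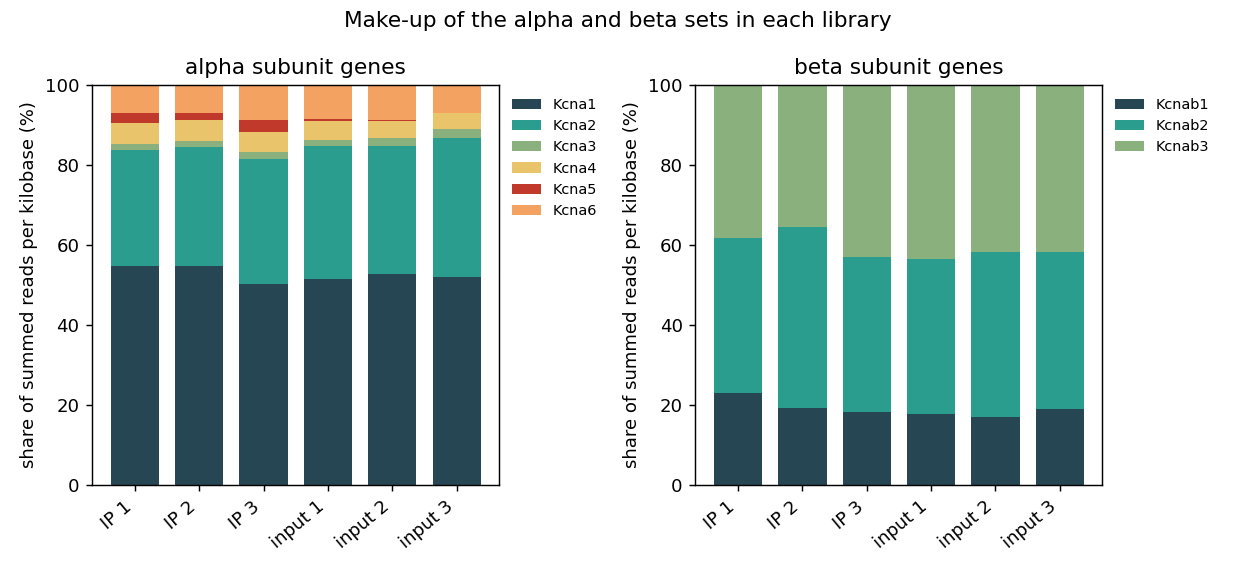
Make-up of the alpha set (left) and the beta set (right) in each library, as percent of the summed reads per kilobase of exon model, with IP libraries left of input libraries. Kcna1 and Kcna2 fill most of each alpha bar, the Kcna5 band is 1.90% to 3.02% in IP and 0.153% to 0.473% in input, and the 3 beta genes keep similar bands.

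The remaining Kv1 rows of the files were near absence. Kcna7, known from skeletal muscle and heart, had 0 reads in all 3 IP libraries and 0, 1 and 7 reads in input. Kcna10, known from kidney and inner ear, had 4, 0 and 0 reads in IP and 0, 2 and 30 reads in input. Neither was tested.

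Genes whose products bind or regulate Kv1 channels were taken as a list of 17. Of these, 2 rose and 6 fell, and 9 did not pass (edgeR, adjusted p under 0.05), with a median log2 fold change of 0.02. The background shares are the 21.3% and 23.4% given above.

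Of the secreted LGI proteins and the ADAM proteins that anchor them, which tie Kv1 channels to trans-synaptic complexes, 1 of 7 rose and 1 fell. Lgi2 had 22.1, 20.04 and 22.5 CPM in IP, against 12.6, 13.2 and 15.7 CPM in input, with no overlap (log2 fold change 0.64, SE 0.15, adjusted p = 0.0046). Lgi4, known from Schwann cells, had 0.251, 0.788 and 0.557 CPM in IP, against 3.68, 4.59 and 2.62 CPM in input (log2 fold change -2.76, SE 0.50, adjusted p = 0.00094). It was lower together with the glial marker lists, and their part in it was not tested. Lgi1, the epilepsy gene whose product slows Kv1 inactivation by Kcnab1, had 169.9 ± 17.97 CPM in IP and 164 ± 26.1 CPM in input (log2 fold change 0.05, adjusted p = 0.78). Lgi1 was called higher in 3 of 16 alternatives, each with a length and GC offset. With the uncentred offset it was 0.54 (adjusted p = 0.0017), where the median gene shifted by 0.29. With the centred one it was 0.20 and not called (adjusted p = 0.15), but called when replicate number was also fitted (0.20, adjusted p = 0.046). For Adam22 the log2 fold change was -0.18 (adjusted p = 0.12), with an opposite sign under the length and GC offsets. For Adam23 it was 0.22 (adjusted p = 0.12), a miss that turned into a call when replicate number was fitted as a block (0.21, adjusted p = 0.049) or the centred offset was used (0.53, adjusted p = 0.0018).

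Of the 3 genes that hold Kv1 channels beside the node of Ranvier, 1 rose and 1 fell. Cntnap2, which encodes a neurexin-like axonal adhesion protein, had 109.5, 93.7 and 104.7 CPM in IP, against 80.5, 71.0 and 90.2 CPM in input (log2 fold change 0.35, SE 0.11, adjusted p = 0.022). This call ended without IP replicate 1 (adjusted p = 0.060) and without input replicate 2 (adjusted p = 0.12). Cntn2, whose product is made by axons and by myelinating glia, had 16.4, 22.7 and 27.7 CPM in IP, against 44.4, 44.4 and 47.6 CPM in input. Every IP library was below every input (log2 fold change -1.03, SE 0.17, adjusted p = 0.00051). For Epb4.1l3, the cytoskeletal linker, the log2 fold change was 0.17 (adjusted p = 0.13).

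Of the 4 PDZ scaffold genes that cluster Kv1 channels, 3 fell. Dlg1 had 87.8 ± 8.74 CPM in IP and 136 ± 10.8 CPM in input (log2 fold change -0.64, SE 0.10, adjusted p = 0.00046), a call lost with the uncentred length and GC offset (adjusted p = 0.16). Dlg2 had 839 ± 41.5 CPM in IP and 1073 ± 69.9 CPM in input (log2 fold change -0.35, SE 0.08, adjusted p = 0.0043), and its sign turned with that offset (0.23, adjusted p = 0.012, where the median gene shifted by 0.29). With the centred offset the Dlg2 call ended (-0.10, adjusted p = 0.25). Dlg3 had 108.6 ± 3.43 CPM in IP and 128 ± 7.41 CPM in input (log2 fold change -0.24, adjusted p = 0.043), and was called in 6 of 16 alternatives, but in none that left out a library (adjusted p from 0.055 to 0.14), and its sign turned with the uncentred offset (0.082). Dlg4 did not pass (log2 fold change -0.13, adjusted p = 0.27).

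Of 3 regulators, 1 fell and the other 2 did not pass. Kcne4, an inhibitory accessory subunit of Kv1.1 and Kv1.3 channels, had 2, 0 and 0 reads in IP, against 22, 20 and 17 reads in input. The ratio of its shares, input over IP, was 39.4 with an exact 95% counting interval of 10.4 to 333, which leaves out spread between libraries. In edgeR the log2 fold change was -5.11 (95% interval -7.74 to -2.47, adjusted p = 0.0047). Adarb1, whose product edits Kcna1 transcripts, had 174.8 ± 3.89 CPM in IP and 153 ± 12.5 CPM in input (log2 fold change 0.19, adjusted p = 0.10). It passed in 5 of 16 alternatives, among them total counts (0.28, adjusted p = 0.020) and the centred offset (0.26, adjusted p = 0.013). For Cttn, whose product cortactin binds actin and Kv1.2, the log2 fold change was 0.24 (adjusted p = 0.13).

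**Figure D4:**
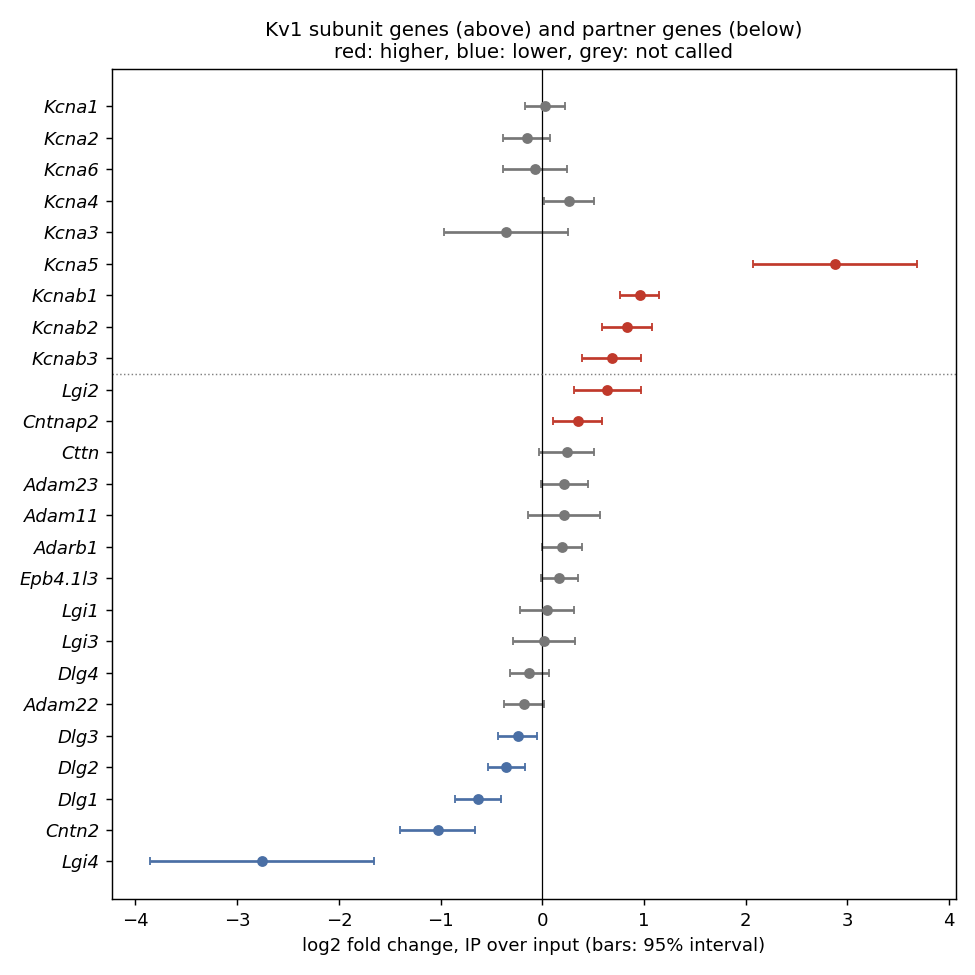
Log2 fold changes, IP over input, with 95% intervals, for the 9 Kv1 genes (above the dotted line) and 16 partner genes (below it). Red genes were higher, blue genes lower and grey genes not called. The called Kv1 genes lie at 0.68 to 2.88 and the called partners at -2.76 to 0.64, of which Dlg2 and Dlg3 change sign with the uncentred length and GC offset. Kcne4 is left out because it had 2 IP reads.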

How the data were processed

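The authors deposited raw counts of reads per gene symbol, 1 table per library, with no normalization. Per the submitters' processing notes, STAR 2.0.0e, HTSeq and build mm10 were used. For HTSeq, the version, strand setting and annotation were not given in the sources used here. Library sizes exclude the rows without a gene name: reads outside genes (8.60% to 8.92% of listed reads in IP, 16.7% to 18.1% in input), reads matching several genes (1.77% to 1.91% in IP, 8.12% to 9.83% in input), reads aligned to several places (32.9% to 35.7% in IP, 21.1% to 23.3% in input), and a row called unknown (at most 2 reads).

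IP and input were compared in R 4.3.3 by the quasi-likelihood method of edgeR 4.0.16, with TMM, filterByExpr and a group term, adjusted by Benjamini-Hochberg over all 16506 tested genes, and tested on simulated data. Intervals are t intervals from that fit. Coding sequences were aligned with Biopython 1.88. The genes and lists were chosen with earlier results of these data known. Named were all Kv1 and partner genes, Htr4, listed markers, and the 3 genes most like the called member with the largest fold change in either direction (none fell), leaving out predicted-gene symbols. Epb4.1l3 was matched from Epb41l3 through RefSeq synonyms. A further gene considered as a partner is not reported here, and counts leave it out.

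Replicate number equals sequencing lane. Deviations from group means correlated at 0.084, 0.060 and 0.046 for same-numbered libraries and -0.053 to -0.0012 for others. Library index and group coincide and cannot be told apart. Chi-square per degree of freedom between libraries of a group was 23.2 to 68.8, so none was a copy.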

Additional observations from a re-analysis of the deposited data

How the results depend on the processing

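The 4 calls among the Kv1 genes (Kcna5, Kcnab1, Kcnab2, Kcnab3) were kept, in the same direction, in all 16 alternatives: other size factors (RLE, total counts), other filters, DESeq2 1.42.0, the replicate block, length and GC offsets, and each library left out. The offsets centred on the median gene were added after the data had been seen. With the replicate block 4 Kv1 genes were called higher and 0 lower, the same as without it, and of the partner genes it changed only Adam23 (log2 fold change 0.21, adjusted p = 0.049). With the uncentred length and GC offset 7 Kv1 genes were called higher, with and without the block, where 5955 of all 14469 genes were called higher (5961 with the block). With the centred one 1 (Kcna3) was called lower, where 3025 of all genes were (3100 with the block). The uncentred offset raised the median gene by 0.29 (0.27 with the block) and gave 75.2% higher calls among all calls, against 47.7% without an offset and 50.5% when centred. It includes a term common to all genes of a library, so it also rescales libraries. When centred, the median shift was -0.04 (-0.06 with the block). The cause was not tested.

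Of 144 values of the Kv1 genes, 125 kept sign and side of the threshold, 9 passed newly, 0 were lost and 12 changed sign, where a value can both change sign and pass. Kcna1 was -0.00027 with RLE and -0.025 with at least 1 CPM in 3 libraries, and from -0.023 to 0.078 with a library left out. Kcna2 was 0.36 with the uncentred offset (0.35 with the block) and 0.027 with the centred one (0.018 with the block). Kcna6 was 0.018 with total counts, 0.21 with the uncentred offset (0.20 with the block) and -0.25 to 0.048 with a library left out. Of 267 partner values, 211 kept sign and side, 22 passed newly, 16 were lost and 24 changed sign. With the uncentred offset, without and with the block, Adam22 was 0.38 and 0.38, Dlg2 0.23 and 0.23, Dlg3 0.082 and 0.083, and Dlg4 0.42 and 0.42. With the centred one, Adam22 was 0.041 and 0.042, Dlg4 0.082 and 0.081, Lgi3 -0.11 and -0.11, and Adam11 -0.0088 and -0.029. Lgi1 was -0.0013 with at least 1 CPM in 3 libraries, where Lgi3 was -0.033, and Lgi3 was -0.0085 with RLE and -0.0030 in DESeq2. With a library left out, Lgi1 was -0.051 to 0.17 and Lgi3 -0.044 to 0.093. Epb4.1l3 had no length or GC value and was not fitted under the offsets. Depth limits Kcna7, Kcna10 and Kcne4, which had 0, 4 and 2 IP reads.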
